A study of Mus musculus with 4 samples.

Results

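The brain's blood vessels were followed here through spots of spatial transcriptomics whose counts were rich in endothelial transcripts. In each of 4 brain sections, every spot with at least 500 unique molecular identifiers (UMIs) was scored for 8 endothelial genes, Cldn5, Flt1, Ly6c1, Itm2a, Slco1a4, Pecam1, Cdh5 and Abcb1a, as the observed minus the expected UMIs over the square root of the expected, where the expected number was the spot's total UMIs times the share of these genes in the section. The 10% of spots with the highest score in each section were the endothelial-marker-high spots, 762 of 7620 spots in all (154 of 1537, 236 of 2358, 229 of 2294 and 143 of 1431 in sections 1 to 4). They were compared with the other 6858 spots of the same sections. Because the spots were chosen by the measured UMIs of the 8 genes, the levels of those genes describe the choice and were not tested.

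The sections were 10-µm cuts of fresh frozen brain from Nf1+/- mice on a C57/BL6 background, which carry a germline loss of 1 copy of Nf1, and the study profiled them on Visium slides to look at RNA where oligodendrocyte precursor cells (OPCs) cluster. All 4 sections had this genotype, no wild-type section was used here, and the labels give neither age nor sex, nor whether the sections came from separate mice, so n counts sections and the spread between them may be partly technical. A Visium spot captures polyadenylated RNA from a small area that can hold several cells of different types, so an endothelial-marker-high spot is a patch of tissue with more vessel RNA and not an endothelial cell. The sections held 19261710 to 37002379 UMIs, with median depths of 8659 to 15114 UMIs in the endothelial-marker-high spots and 8901 to 15375 UMIs in the other spots, the former slightly shallower in all 4 sections.

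As background, brain endothelial cells line the vessels and form the blood-brain barrier. Tight junctions close the gaps between them, transcytosis is held low, and transporters and efflux pumps carry nutrients, hormones and drugs across the cell or back to the blood. Wnt and norrin signals that reach the Fzd4 receptor switch on and maintain this state. Capillaries are wrapped by pericytes, arteries and arterioles by smooth muscle, and both by a basement membrane and astrocyte endfeet, while perivascular fibroblasts and macrophages lie along larger vessels and in the leptomeninges.

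The choice rested on few molecules. The median endothelial-marker-high spot held 9, 11, 8 and 8 UMIs of the 8 genes in sections 1 to 4, where its own depth predicted 3.09, 4.27, 2.38 and 2.59, and the median other spot held 2, 3, 2 and 2. Between 7.96% and 24.7% of the other spots of a section held no UMI of any of the 8 genes. The last spot inside the threshold scored 1.96, 2.08, 2.19 and 1.93 in sections 1 to 4 and the first spot outside scored 1.95, 2.07, 2.18 and 1.92, so there was no gap at the boundary. The endothelial-marker-high spots held 9.35% to 9.83% of a section's UMIs and 26.1% to 32.4% of the UMIs of the 8 genes. Of the spots chosen after each spot with at least 5000 UMIs was thinned to 5000 UMIs, 54.1% to 70.1% had also been chosen with all UMIs.

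The label was checked with scores that left out the genes they tested. Spots were chosen again by Cldn5, Flt1, Pecam1 and Cdh5 alone, which are junction, receptor and adhesion genes of endothelium, and the 4 remaining genes were compared between the chosen and the other spots. Ly6c1, a surface protein of brain endothelium, stood at 134, 182, 243 and 132 counts per 1000000 UMIs (CPM) in the chosen spots of sections 1 to 4 and at 79.3, 98.5, 95.5 and 75 CPM in the others. The groups did not overlap, and the log2 fold change was 0.98 (SE 0.061, edgeR adjusted p = 3.46e-15). Itm2a, Slco1a4 and Abcb1a, a transmembrane protein, an organic anion carrier and an efflux pump of the barrier, had log2 fold changes of 0.82, 0.76 and 1.13. When spots were chosen by those 4 genes instead, Cldn5, the main claudin of the barrier, stood at 30.0, 46.4, 78.3 and 41.2 CPM against 13.2, 18.8, 23.0 and 19.9 CPM in the others, with a log2 fold change of 1.38 (SE 0.097, edgeR adjusted p = 1.94e-16), and Flt1, Pecam1 and Cdh5 had log2 fold changes of 1.10, 1.17 and 1.31. All 8 genes were higher with an adjusted p under 0.05 in the score that left them out, against 3.24% and 5.55% of all other tested genes in the 2 scores. The label was kept.

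For the main comparison, each section gave 2 sums of UMIs, from its endothelial-marker-high spots and from its remaining spots, and edgeR tested the 8 sums with a quasi-likelihood model that holds the section as a block. Of 15034 tested genes outside the score, 939 (6.25%) were higher and 400 (2.66%) lower at an adjusted p under 0.05, and the median log2 fold change was -0.01. The 4 endothelial-marker-high sums lay wholly above or below the 4 other sums for 6.14% of the tested genes. In sums over spots, more cells of a type and more RNA per cell cannot be told apart. The lists of endothelial, mural, basement membrane, fibroblast and perivascular macrophage genes ranged from medians of 0.36 for junctions to 1.73 for fibroblasts and perivascular macrophages, and those of neurons, OPCs and mature oligodendrocytes lay between -0.11 and 0.11, as the plot of list members shows.

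**Figure D1:**
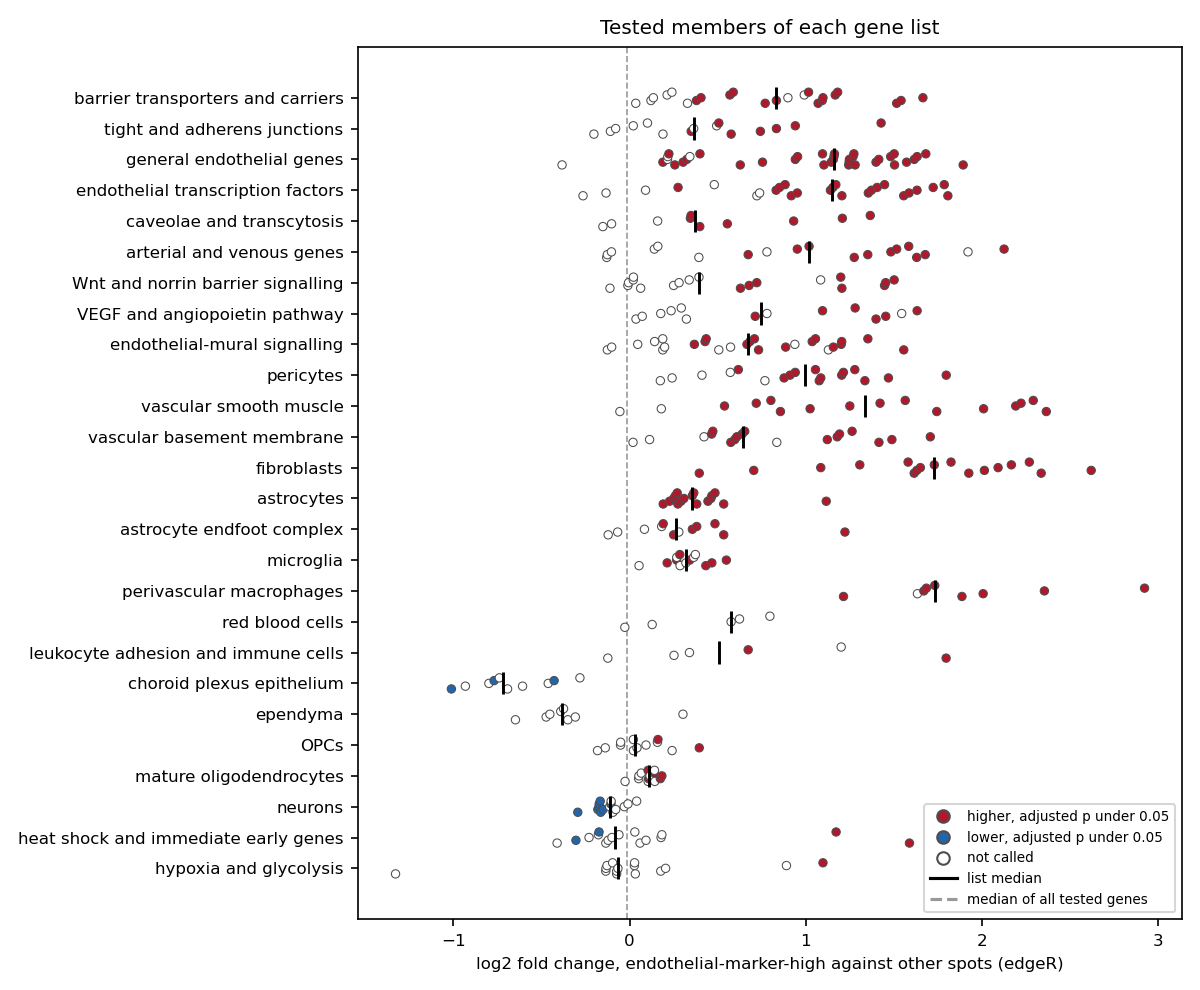
Each point is a tested gene of a list, placed at its log2 fold change in endothelial-marker-high against other spots (x axis), with red for higher and blue for lower at an adjusted p under 0.05 and white for genes not called. Black bars are list medians and the dashed line is the median of all tested genes, -0.01. The endothelial, mural, fibroblast and perivascular macrophage lists lie to the right of 0, the neuron and choroid plexus lists to the left.

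Transporters of the barrier were higher in 15 of 23 tested members and lower in none (median log2 fold change 0.83). Slc2a1, the glucose transporter of brain endothelium (chr4:119108745-119137330, mm10), was counted at 183, 256, 152 and 121 CPM in the endothelial-marker-high spots of sections 1 to 4 and at 95, 105, 69.2 and 67.6 CPM in the other spots. The lowest endothelial-marker-high section lay above the highest other section, and the log2 fold change was 1.10 (SE 0.054, edgeR adjusted p = 1.73e-22), with means of 178 ± 57.7 and 84.1 ± 18.6 CPM (SD, n = 4 sections). Slc22a8, an organic anion transporter, was at 32.5, 21.6, 20.9 and 12.3 CPM against 7.13, 8.15, 6.46 and 5.41 CPM, a log2 fold change of 1.66 (SE 0.15), with no overlap. It was lower than in the fibroblast-marker-high spots described below (means of 10.6 and 21.8 CPM, -1.11). The efflux pump Abcg2 was at 24.7, 30.1, 36 and 26.2 CPM against 13.4, 15.9, 13.9 and 14.2 CPM, a log2 fold change of 1.02 (SE 0.11), again with no overlap and with section 3 highest among the endothelial-marker-high sums. Carriers of thyroid hormone (Slco1c1, 0.77), large neutral amino acids (Slc7a5, 0.83, and its partner Slc3a2, 0.41), glutamine (Slc38a3, 0.57, and Slc38a5, 1.52), taurine (Slc6a6, 0.38), riboflavin (Slc52a3, 1.54) and iron (the exporter Slc40a1, 1.07) were also higher, as were Abcc4, Slco2b1, Slc39a8 and Slc16a4. The 8 members that were not called were Slc19a3 (0.99, edgeR adjusted p = 0.0619), Slc29a1 (0.33), Ager (0.90), Slc16a1 (0.24), Slc7a1 (0.21), Tfrc (0.13), Lrp1 (0.12) and Insr (0.03). Among them the transferrin receptor Tfrc, used as a route for antibodies into the brain, was at 33.4, 28.9, 30.6 and 49.1 CPM against 32.3, 24.9, 31.8 and 41.1 CPM, and the groups overlapped.

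**Figure D2:**
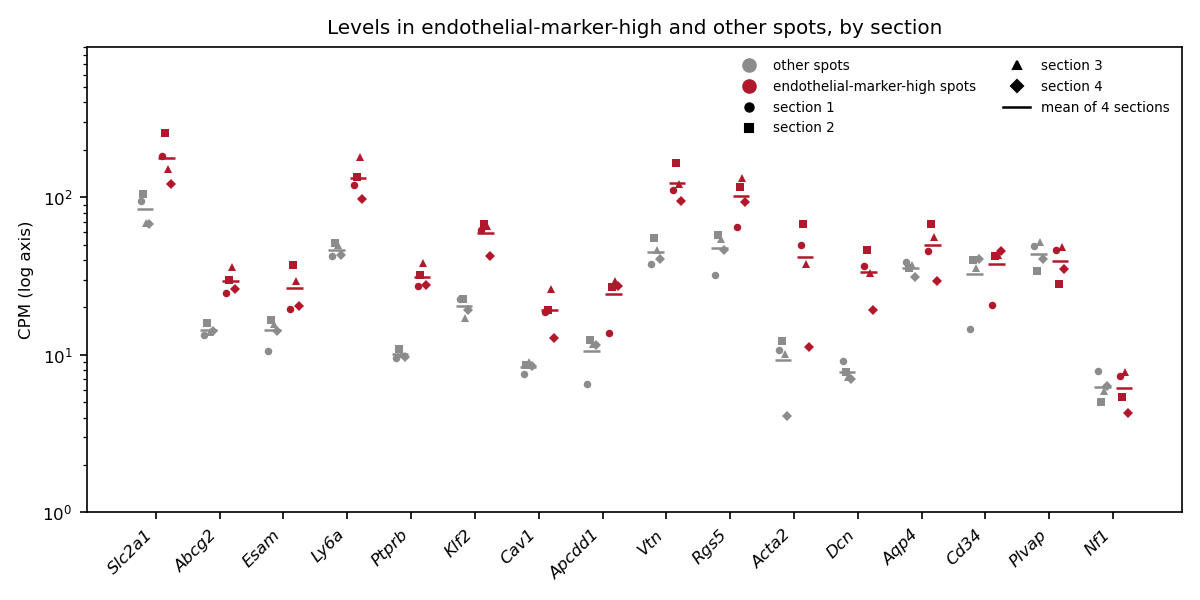
Each point is the CPM (log axis) of a gene in 1 of 4 sections, red in endothelial-marker-high and grey in other spots, with bars at the means of the 4 sections. None of these 16 genes was part of the score. From Slc2a1 to Dcn the red point of each section lies above its grey point, although the groups overlap for Acta2. Plvap, Cd34 and Nf1 overlap as well.

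Of 15 tested genes of tight and adherens junctions, 7 were higher and none lower (median 0.36). Esam, an endothelial adhesion molecule of tight junctions, was at 19.5, 37.4, 29.6 and 20.3 CPM against 10.6, 16.8, 15.7 and 14.3 CPM, a log2 fold change of 0.94 (SE 0.11, edgeR adjusted p = 6.41e-09), with no overlap between the groups. Lsr, which belongs to junctions where 3 cells meet, was at 10.8, 9.93, 11.2 and 9.08 CPM against 3.92, 3.82, 3.51 and 4.03 CPM (1.43, SE 0.19), and Ocln, which encodes occludin, at 9.10, 11.9, 9.72 and 6.41 CPM against 5.91, 5.41, 5.71 and 4.49 CPM (0.83, SE 0.19), both without overlap. Jam2 (0.51), Tjp1 (0.35), Cgnl1 (0.74) and F11r (0.58) completed the 7. The catenins Ctnnb1 (0.02) and Ctnnd1 (0.19), the scaffolds Magi1 (-0.20) and Afdn (-0.08), and Cldn12 (-0.11), Cgn (0.10) and Marveld2 (0.49) were not called. Ctnnb1, which all cells use, was at 288, 289.9, 273 and 225 CPM against 289, 275, 256 and 247 CPM.

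General endothelial genes gave the highest share of called members among the endothelial lists, 32 of 36 tested (median 1.16). Ly6a, the Sca-1 antigen, was at 119.6, 134, 179 and 97.2 CPM against 42.4, 50.9, 49.8 and 43.2 CPM, a log2 fold change of 1.5 (SE 0.066, edgeR adjusted p = 2.34e-24). Each endothelial-marker-high section was above every other-spot section, and section 3 was the highest. Ramp2, a co-receptor for adrenomedullin, had a log2 fold change of 1.16 and Pltp, a phospholipid transfer protein, of 1.10. Ptprb, the phosphatase that restrains the Tie2 receptor, was at 27.3, 32.1, 38.4 and 27.8 CPM against 9.50, 10.9, 10.2 and 9.72 CPM (1.63, SE 0.11), and Vwf, the clotting factor of larger vessels, at 16.9, 25.0, 19.4 and 10.1 CPM against 5.15, 6.93, 3.66 and 3.51 CPM (1.89, SE 0.16). Neither pair of groups overlapped. Bsg and Ly6e, which many brain cells express, were higher by only 0.26 and 0.19. Igf1r (0.22), Cd34 (0.21), Palmd (0.34) and Abcb1b (-0.38) were not called. Cd34, often used as a vessel marker, was at 20.8, 42.6, 43.3 and 45.4 CPM against 14.6, 40.3, 35.5 and 40.4 CPM, higher in each section but with overlap between the groups, and with section 1 lowest in both.

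Of 26 tested transcription factors with a role in endothelium, 20 were higher and none lower (median 1.15). Klf2, induced in endothelium by blood flow, was at 61.9, 67.2, 66.1 and 42.7 CPM against 22.5, 22.7, 17.1 and 19.2 CPM, a log2 fold change of 1.56 (SE 0.088, edgeR adjusted p = 4.97e-20). Epas1, which encodes HIF-2α, was at 133, 146, 168 and 126 CPM against 79.2, 82.2, 79.5 and 76.5 CPM (0.85, SE 0.054). Id1 and Id3, targets of BMP signalling, had log2 fold changes of 1.14 and 0.88. The groups did not overlap for any of these 4 genes. The SoxF factors Sox17 (1.45), Sox18 (1.59) and Sox7 (1.37), the forkhead factors Foxc1 (1.81), Foxf2 (1.63), Foxq1 (1.72) and Foxl2 (1.79), and the ETS factors Fli1 (1.15), Elk3 (0.83) and Ets1 (0.92) were higher, at low levels. Foxq1, a factor of brain endothelium, was at 4.76, 6.24, 10.2 and 5.88 CPM against 1.28, 2.48, 1.80 and 2.47 CPM. The ETS factors Erg (0.74, edgeR adjusted p = 0.19) and Ets2 (-0.13), and Tal1, Ppard and Bcl6b (0.72, 0.09 and -0.26), were not called.

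Promoter sequence was set beside this group because ETS, forkhead, SOX and TCF/LEF factors are the classes that act on endothelial genes. Of the 73 called genes in the transporter, junction, general endothelial and transcription factor lists, 46 had a promoter in the RefSeq table used (build GRCm38.p6), with 64 promoters in all. In the 250 bases before the start, the ETS core CCGGAA was present on either strand in 12.5% of the 64 promoters and in 12% of all 32851 promoters. The TCF/LEF core CTTTGAT was in 3.12% against 3.21%, and the forkhead core GTAAACA in 0 against 3.17%. The SOX core ACAAT was in 15.6% against 27.7%. A match is a description and not a binding site. The called genes of lowest p whose promoter held the ETS core are printed here, 5′ to 3′ on the gene's strand, with the ETS core in capitals. The plan had been to print those of lowest p whatever their motifs. The printed promoters were picked for the core and do not stand for the called genes. Adgrl4 is an adhesion receptor of endothelium (log2 fold change 1.25, SE 0.12), its window is chr3:151437632-151437881 on the plus strand, and the core begins 25 bases before the start. Foxc1 (1.81, SE 0.18) is a forkhead factor of vessels and mural cells, its window is chr13:31806396-31806645 on the plus strand, and the core begins 62 bases before the start.
Adgrl4: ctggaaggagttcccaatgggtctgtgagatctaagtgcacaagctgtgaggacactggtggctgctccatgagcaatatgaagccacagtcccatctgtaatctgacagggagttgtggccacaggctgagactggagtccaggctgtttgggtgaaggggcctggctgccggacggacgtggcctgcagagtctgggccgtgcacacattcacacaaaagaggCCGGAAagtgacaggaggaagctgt
Foxc1: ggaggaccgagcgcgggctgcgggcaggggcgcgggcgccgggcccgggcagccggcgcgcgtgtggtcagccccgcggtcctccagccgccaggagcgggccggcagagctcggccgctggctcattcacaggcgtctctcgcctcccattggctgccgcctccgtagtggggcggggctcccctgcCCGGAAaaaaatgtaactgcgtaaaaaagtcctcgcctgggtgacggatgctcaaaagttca

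Genes of caveolae and transcytosis were higher in 7 of 10 tested members (median 0.37). Cavin1 and Cav1, the coat and core proteins of caveolae, were at 28.2, 34.9, 28.2 and 16.6 CPM against 12.5, 12.6, 8.92 and 8.34 CPM and at 18.6, 19.3, 26.2 and 12.8 CPM against 7.51, 8.57, 8.97 and 8.45 CPM, log2 fold changes of 1.37 and 1.21 without overlap. Cavin2 (0.93), Ehd4 (0.55), Mfsd2a (0.40), the lipid transporter that holds transcytosis low, Cavin3 (0.35) and Cav2 (0.34) were also higher. Plvap, a component of the fenestrae of leaky vessels such as those of the choroid plexus and circumventricular organs, was at 46.4, 28.4, 48.6 and 35.3 CPM against 48.8, 34.0, 51.9 and 40.7 CPM, a log2 fold change of -0.15 (SE 0.081, edgeR adjusted p = 0.292). It was lower in each of the 4 sections, by less than the spread between sections, so the groups overlapped.

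Genes of the arterial and venous ends of the vessel tree were both represented, with 11 of 19 tested members higher (median 1.02). Of arterial genes, Gkn3 was at 19.1, 32.1, 29.6 and 20.3 CPM against 7.13, 9.68, 8.17 and 7.99 CPM (1.63, SE 0.13), the connexin gene Gja4 at 10.4, 8.51, 6.80 and 5.34 CPM against 2.32, 3.26, 2.10 and 3.68 CPM (1.48, SE 0.24), and Sema3g and Bmx had log2 fold changes of 1.68 and 2.13. Of venous genes, the nuclear receptor Nr2f2 was at 23.8, 17.9, 11.7 and 16.6 CPM against 10.3, 8.10, 6.46 and 12.5 CPM (0.95, SE 0.14), with overlap, Slc38a5 had a log2 fold change of 1.52 and Il1r1 of 1.58. The venule receptor Ackr1 (-0.10) and the arterial genes Hey1 (-0.13) and Efnb2 (-0.13) were not called. Gja5 and Selp, with 23 and 1 UMIs in all, were too low to be tested.

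Of the Wnt and norrin pathway, 8 of 19 tested members were higher and none lower (median 0.39). Apcdd1, a Wnt target in barrier endothelium, was at 13.9, 27.0, 29.6 and 27.2 CPM against 6.57, 12.4, 11.8 and 11.6 CPM (1.2, SE 0.12, edgeR adjusted p = 4.00e-11). Adgra2 (the co-receptor Gpr124) was at 10.8, 12.2, 5.83 and 6.41 CPM against 3.02, 3.97, 3.41 and 2.76 CPM (1.45, SE 0.21). Its partner Reck (0.63), the receptor Fzd4 (0.72), the nuclear effector Lef1 (1.2), and Notum (1.5), Nkd1 (0.68) and Sox17 were also higher. The ligands Wnt7a, Wnt7b and Ndp, made by glia and neurons, were not called, with log2 fold changes of -0.11, 0.06 and 0.02. On the receiving side, Lrp5 (1.08, edgeR adjusted p = 0.0847), Tspan12 (0.34), Fzd6 (0.39), Axin2 (0.28), Tnfrsf19 (0.25), Tcf7 (-0.01) and Lrp6 (-0.01) were not called either, and receivers and ligands were not tested against each other.

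In the VEGF and angiopoietin pathway 6 of 14 tested members were higher (median 0.75). The receptors Kdr (1.09), Flt4 (1.45), Tek (1.28) and Tie1 (1.4), the phosphatase Ptprb and the ligand Pgf (0.71) were called. Of these, Kdr, Tek, Tie1 and Ptprb also stand in the general endothelial list. Other lists share members too, so the counts of different lists are not independent. Tie1 was at 6.06, 10.5, 8.26 and 8.01 CPM against 2.74, 3.58, 3.61 and 2.65 CPM and Kdr at 8.23, 4.82, 10.2 and 7.48 CPM against 3.07, 3.58, 3.81 and 3.28 CPM, without overlap. The ligands Vegfa (0.18, edgeR adjusted p = 0.365), Vegfb (0.07) and Angpt1 (0.24) were not called, and the difference between receptors and ligands was not itself tested. Signalling between endothelium and mural cells was higher in 15 of 26 tested members (median 0.67), among them the TGF-β co-receptor Eng (1.16), the BMP receptor Acvrl1 (0.67), the sphingosine phosphate receptor S1pr1 (0.43), and Notch3 (1.2) and Pdgfrb (1.05), the receptors of mural cells. The endothelial ligands Pdgfb (0.14, SE 0.13) and Dll4 (1.13, SE 0.38) were not called.

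Genes of the cells that wrap vessels were higher in the same spots. Of 18 tested pericyte genes, 13 were higher (median 1.00). Vtn, which encodes vitronectin, was at 111, 165, 122 and 94.5 CPM against 37.8, 55.3, 46.6 and 40.4 CPM, a log2 fold change of 1.47 (SE 0.061, edgeR adjusted p = 2.02e-25), the lowest p among list genes outside the score. Rgs5, a regulator of G protein signalling in pericytes, was at 65.0, 115, 133 and 94.0 CPM against 32, 58.1, 54.4 and 46.6 CPM (1.08, SE 0.063). Abcc9 (0.57), Art3 (0.41), Zic1 (0.17), Cspg4 (0.24) and Nodal (0.77) were not called. Of 16 smooth muscle genes, 14 were higher (median 1.34). The contractile genes Acta2 and Tagln were at 49.8, 67.5, 37.9 and 11.2 CPM against 10.7, 12.3, 10.1 and 4.08 CPM and at 37.7, 29.8, 32.1 and 8.01 CPM against 6.00, 6.51, 5.66 and 2.42 CPM, log2 fold changes of 2.19 and 2.36. Section 4 was the lowest in both groups for both genes, and the Acta2 groups overlapped because section 4's endothelial-marker-high level lay below the highest other-spot level, although each section was higher on its own. Of 18 genes of the basement membrane, 14 were higher (median 0.65), from the abundant matrix protein Sparc (0.61, 353, 174, 163 and 208 CPM against 218, 117, 104 and 148 CPM) to the laminins Lamb2 (1.12) and Lama1 (1.71).

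Fibroblast, macrophage and glial genes were also higher. All 17 tested fibroblast genes were higher (median 1.73), among them fibronectin, Fn1 (43.8, 70.6, 41.8 and 36.3 CPM against 14.1, 20.7, 16.3 and 12.8 CPM, 1.61), the proteoglycan Dcn (36.4, 46.5, 33.0 and 19.2 CPM against 9.12, 7.80, 7.22 and 7.02 CPM, 2.17) and Slc6a13, a GABA transporter of leptomeninges (2.34). Of 9 genes of perivascular macrophages, 8 were higher (median 1.73), at low levels. The chemokine gene Pf4 was at 7.36, 17, 8.75 and 5.88 CPM against 2.13, 3.32, 2.96 and 2.59 CPM (1.89) and the mannose receptor gene Mrc1 at 5.2, 10.5, 5.83 and 2.67 CPM against 1.89, 2.24, 2.10 and 1.78 CPM (1.67). All 17 astrocyte genes were higher with smaller fold changes (median 0.36), led by Gfap (49.8, 80.9, 60.3 and 30.4 CPM against 30.0, 26.0, 29.3 and 21.9 CPM, 1.12), and 7 of 12 genes of the endfoot list were higher (median 0.26), among them the water channel Aqp4 (0.53). The cystine transporter Slc7a11 had the largest rise of that list (1.22), but it was lower than in the fibroblast-marker-high spots described below (means of 18.6 and 38.0 CPM, -1.04). Aqp4 and Gfap were also lower than in those spots (means of 37.2 and 60.3 CPM, -0.74, and of 28.9 and 71.8 CPM, -1.37). Of the dystrophin complex at the endfoot, Dtna, Dag1, Sntb1 and Dmd were not called (-0.12, 0.08, 0.28 and -0.07). Microglial genes were higher in 7 of 13 (median 0.32), with the complement genes C1qc (0.47), C1qa (0.43) and C1qb (0.34) first and Tmem119 (0.05) not called.

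For red blood cell genes the sections disagreed. None of 5 tested red blood cell genes was called by the main edgeR fit or by DESeq2, and 2 had an unadjusted edgeR p under 0.05 (median 0.58). The haemoglobin gene Hbb-bs was at 9.96, 24.7, 7.29 and 3.74 CPM against 4.06, 6.66, 24.1 and 3.62 CPM (0.62, SE 0.26, edgeR adjusted p = 0.137), higher in 3 sections and lower in section 3. Without section 3, 3 of the 5 genes were called higher (median 1.3), and without section 2 none was and the median was -0.45. No filter gave 2 higher. The top 5% of spots, the score of Cldn5, Flt1, Pecam1 and Cdh5 and leaving out choroid plexus-marker spots gave 1 higher each. Leaving out fibroblast-marker-high spots gave 1 lower. Of 6 tested genes of leukocyte adhesion and immune cells, the adhesion molecules Vcam1 (0.67) and Icam1 (1.80) were higher, while Ptprc, the pan-leukocyte gene, was at 1.3, 2.55, 1.46 and 0.534 CPM against 1.56, 1.25, 1.15 and 1.55 CPM. Neither Vcam1 nor Icam1 was called without fibroblast-marker-high spots. Vcam1 was also lower than in fibroblast-marker-high spots (means of 20.4 and 44.9 CPM, -1.14). Cd3e, Sele and Ly6g, genes of T cells, activated endothelium and neutrophils, had no UMI in any section, and a count of 0 allows up to 3 UMIs in all. Neuronal genes were lower in 8 of 15 (median -0.11), such as Snap25 (-0.17) and Slc17a7 (-0.29). Mature oligodendrocyte genes were higher in 5 of 13 (median 0.11), the highest of them Cnp at 0.18, but these calls depended on the setting. No member was called among matched spots (median 0.01), by DESeq2, after thinning, without the section block or when section 3 was dropped. Neither the score of Cldn5, Flt1, Pecam1 and Cdh5 (median 0.0005) nor a choice of 5% of spots gave any. Dropping fibroblast-marker-high spots left 1, while choosing 20% of spots gave 7, as did the score of Ly6c1, Itm2a, Slco1a4 and Abcb1a. OPC genes were higher in 2 of 12 (median 0.03), Olig1 (0.16) and Pdgfra (0.40, SE 0.088), and Pdgfra also stands in the fibroblast list. No OPC gene was called without fibroblast-marker-high spots, after thinning or without the section block. DESeq2 and matched spots each gave 1. Choroid plexus genes were lower in 3 of 10 (median -0.72), Kl, Folr1 and Clic6, and this list's summed level differed most in section 1, which with section 4 held most of the choroid plexus-marker spots (189, 4, 7 and 76 in sections 1 to 4). Without section 1 none was called (median -0.12), nor was any with DESeq2, matched spots, thinned spots, the score of Cldn5, Flt1, Pecam1 and Cdh5 or no block, or without choroid plexus-marker or fibroblast-marker-high spots. In the main spot groups, none of 8 ependymal genes was called by edgeR or DESeq2, with 1 at an unadjusted edgeR p under 0.05. Some were called lower in other settings: 3 with the top 5% and 3 with the top 20% of spots. The score of Ly6c1, Itm2a, Slco1a4 and Abcb1a gave 2, leaving out section 2 gave 2, and matched spots and no filter gave 1 each. Of 16 heat shock and immediate early genes, Hspb1 (28.2, 59.9, 68.0 and 30.4 CPM against 12.8, 18.9, 20 and 10.4 CPM, 1.59) and Zfp36 (1.17) were higher and Arc (-0.30) and Egr1 (-0.17) lower, and of 15 hypoxia and glycolysis genes Slc2a1 alone was called.

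Nf1, the gene with a lost copy in all sections, was at 7.36, 5.39, 7.78 and 4.27 CPM in the endothelial-marker-high spots and 7.89, 5.05, 5.91 and 6.33 CPM in the other spots of sections 1 to 4. It was higher in 2 sections and lower in 2 (log2 fold change 0.00, SE 0.21, edgeR adjusted p = 0.999), from 60 and 564 UMIs. At this depth a difference of the size of its SE, or of a few times its SE, could have been missed.

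With the spots of each section sorted by score into 10 bins of equal size, the summed levels of the vessel-associated lists rose towards the top. The sum of general endothelial genes was 1049.6, 1141, 1109 and 1044 CPM in the lowest bin of sections 1 to 4, 1229.8, 1479, 1449.5 and 1412 CPM in the ninth and 1552, 1876, 1874 and 1652 CPM in the highest, and the step into the highest bin was the largest between neighbouring bins in each section. Pericyte genes went from 165, 186, 154 and 132 CPM in the lowest bin to 248, 299, 279 and 243 and 341, 482, 472 and 333 CPM in the ninth and the highest. The sum of fibroblast genes went from 454, 426, 433 and 362 CPM in the ninth bin to 738, 1003, 596 and 479 CPM in the highest, with section 2 the highest and section 4 the lowest in the top bin. These levels run along the score that sorted the spots and were not tested.

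**Figure D3:**
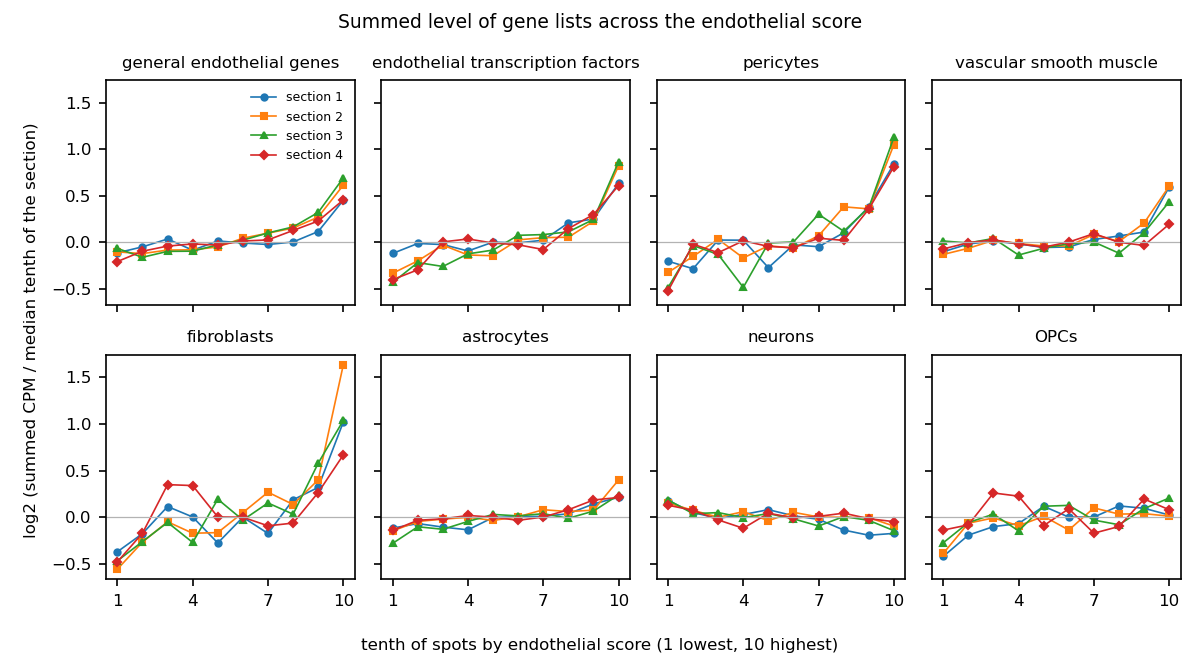
Each line is a section, with spots divided into 10 groups of equal size by endothelial score (x axis) and the summed CPM of a gene list as log2 of its ratio to the section's median bin (y axis). The endothelial, pericyte, smooth muscle and fibroblast sums are highest in the top bin in all 4 sections, while neuronal and OPC sums stay near 0 there.

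Endothelial-marker-high spots were often high for the score of another cell type computed in the same way. On average 29.9% ± 1.97 of them (SD, n = 4 sections) were among the 10% highest for pericyte genes, 23.2% ± 6.95 for fibroblast genes, 21.4% ± 3.14 for smooth muscle genes and 20% ± 5.11 for astrocyte genes. The shares were 14.6% ± 2.47 for microglial and 9.85% ± 1.86 for OPC genes, where 10.0% of all spots are high for each by construction. The fibroblast share ranged from 16.8% in section 4 to 33.1% in section 2. With 4 sections an exact permutation test cannot go below a two-sided p of 0.125, so these shares were not tested, and spots high for several scores also share their total UMIs.

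**Figure D4:**
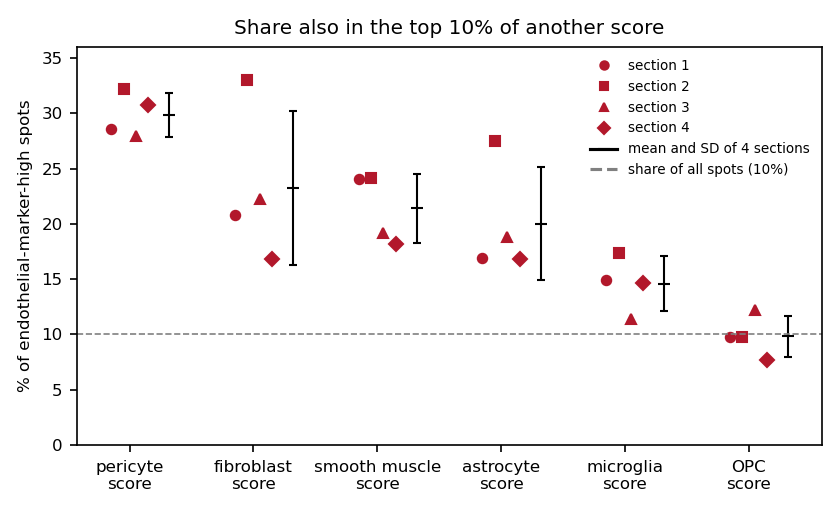
Points give, for each section, the percent of endothelial-marker-high spots (y axis) that were also in the top 10% for another score (x axis), with the mean and SD of 4 sections beside them and a dashed line at the share of all spots. The pericyte share was 27.9% to 32.2% and the OPC share 7.69% to 12.2%.

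Since 185 of the 762 spots were also fibroblast-marker-high, the comparison was made again without any fibroblast-marker-high spots. The remaining spots of each section were scored again and their top 10% taken, so the chosen spots included some outside the 762. Then 351 of 14672 tested genes (2.39%) were higher. Transporters were higher in 14 members as against 15, and general endothelial genes in 28 as against 32, whereas smooth muscle genes were higher in 1 as against 14, perivascular macrophage genes in 0 as against 8 and fibroblast genes in 3 as against 17. Of the remaining lists, transcription factors were higher in 13 as against 20 (median 0.80 as against 1.15), arterial and venous genes in 6 as against 11, Wnt genes in 3 as against 8, junction genes in 4 as against 7, VEGF and angiopoietin genes in 5 as against 6, pericyte genes in 9 as against 13, basement membrane genes in 5 as against 14, astrocyte genes in 11 as against 17 and microglial genes in 0 as against 7. Endothelial-mural signalling genes were higher in 8 as against 15 (median 0.36 as against 0.67). Caveolae and transcytosis genes were higher in 5 as against 7 and endfoot genes in 4 as against 7. Leukocyte adhesion and OPC genes were each higher in 0 as against 2. Slc2a1 went from a log2 fold change of 1.10 to 0.98, Ly6a from 1.5 to 1.31 and Rgs5 from 1.08 to 1.00, and all 3 stayed called. Acta2 went from 2.19 to 0.24 and Gfap from 1.12 to 0.24, and neither was called. Leaving out spots by fibroblast genes lowers those genes by construction, and the smaller number of spots bears on every count. Against other spots matched on expression cluster and depth, 640 of 13410 genes (4.77%) were higher, with 15 transporters, 32 general endothelial, 10 smooth muscle and 16 fibroblast genes among them. In sections 1 and 2 only 147 of 154 and 217 of 236 endothelial-marker-high spots found a match. The spots without a match stayed in the sums, so the matching was incomplete there.

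**Figure D5:**
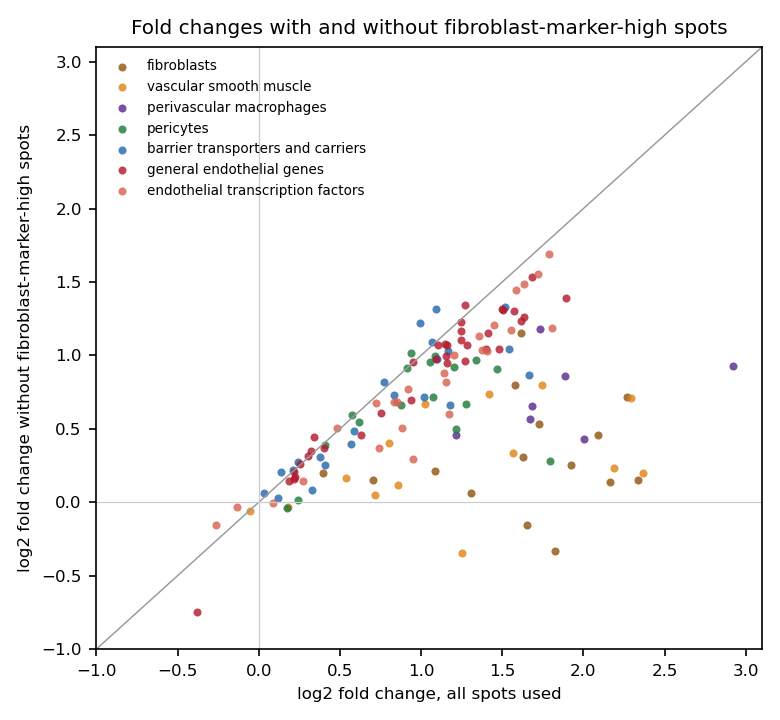
Each point is a gene of 7 lists, at its log2 fold change with all spots used (x axis) and without fibroblast-marker-high spots (y axis), with a line of equality. Endothelial, transporter and pericyte genes lie near or somewhat below the line, and fibroblast, smooth muscle and perivascular macrophage genes far below it.

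Endothelial-marker-high spots were next set against astrocyte-marker-high spots, after spots in both groups were left out (604 spots each). Astrocyte-marker-high spots were not free of vessel RNA. On average 20% of endothelial-marker-high and 8.89% of other spots were astrocyte-marker-high before the shared spots were left out. Afterwards the astrocyte-marker-high spots held Vtn and Acta2 at means of 72.5 and 27.1 CPM. The astrocyte-marker-high spots also held more ependymal RNA, such as Ccdc153 (mean of 36.4 against 3.29 CPM). Of 11709 tested genes outside both scores, 5.1% were higher and 5.01% lower in the endothelial-marker-high spots. General endothelial genes were higher in 18 of 30 tested members (median 0.67), such as Ly6a, with a log2 difference of 1.15 (means of 127 and 57.2 CPM), and Ptprb, with 0.95. Transcription factors were higher in 6 of 20, led by Sox17 (1.58, means of 12.5 and 4.35 CPM), and Hopx was lower (-1.0). The Wnt genes Apcdd1 (0.90), Lef1 (1.36) and Sox17 were higher and the ligand gene Ndp lower (-0.75). Transporters were higher in 4 of 17 tested members and lower in 1 (median 0.13). Slc2a1 (0.56), Abcg2 (0.79), Slc7a5 (0.74) and Slc40a1 (1.11) were higher, Slc38a3 was lower (-0.42), and for Slco1c1 the difference of 0.13 (SE 0.12) was not called. Junction genes were higher in 1 of 13, Esam (median -0.05), and caveolae and transcytosis genes in 0 of 10 (median 0.04), with none lower in either list. Smooth muscle genes were higher in 1 of 12 and lower in 1 (median 0.01). Fibroblast genes were higher in 1 of 15 and lower in none (median -0.005). Of 14 basement membrane genes none was higher and Sparc was lower (-0.66, means of 179 and 310 CPM). Arterial and venous genes were higher in 1 of 12, Gkn3 (1.08), and lower in none (median 0.03). Of 21 endothelial-mural signalling genes, 2 were higher and 3 lower (median -0.07), S1pr1 (-0.45) among the latter. Acta2 differed by -0.03 (SE 0.22) and all 7 tested ependymal genes were lower. Gene by gene, the largest differences by rule were Sox17, Tinagl1 (1.45), Strit1 (1.4), Tmem204 (1.37) and Gm33651 (1.37) upwards and Gnrh1 (-4.53), 1700012B09Rik (-3.87), Cdhr4 (-3.60), Ccdc153 (-3.39) and Tmem212 (-3.08) downwards, where Gnrh1 reached 376 CPM in the astrocyte-marker-high spots of section 3 and 1.22 to 6.78 CPM in the others. Gnrh1, 1700012B09Rik and Cdhr4 had no UMI in some endothelial-marker-high sums, so their fitted values depend on the fit's prior.

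Against fibroblast-marker-high spots, with spots in both groups left out (577 each), 1.81% of 11860 genes were higher and 3.87% lower. General endothelial genes were higher in 3 of 32 tested members and lower in none (median 0.33), Ly6a among them (0.85, SE 0.11). Transporters were higher in 2 of 18 and lower in 2 (median 0.08). Slc2a1 was higher (0.42, SE 0.085), as was the iron exporter Slc40a1 (1.26), while Slc22a8 (-1.11) and Slc38a3 (-0.67) were lower. Junction genes were higher in 0 of 13 and lower in 1 (median -0.19). Caveolae and transcytosis genes were higher in 0 of 10 and lower in 1 (median -0.11). Of 18 transcription factors, Klf2 (0.53) and Foxq1 (1.66) were higher and Hopx (-0.82), Nr2f2 (-0.77) and Id3 (-0.51) lower. Arterial and venous genes were higher in 0 of 13 and lower in 5 (median -0.42), among them Nr2f2. Of 20 endothelial-mural signalling genes, none was higher and 1, Bmp6 (-2.31), was lower (median -0.05). No call was made among 15 tested Wnt genes (median -0.19) or 9 VEGF and angiopoietin genes (median 0.09). Of 14 pericyte genes, Rgs5 (0.37) was higher and Zic1 (-0.86) and Ifitm1 (-0.77) lower. Smooth muscle genes were lower in 6 of 12 (median -0.84), with Acta2 at 7.13 against 45.5 CPM (-2.68, SE 0.20). Basement membrane genes were higher in 0 of 16 and lower in 6 (median -0.52), among them Lamb2 (-0.63) and Lama1 (-1.99). All 10 tested choroid plexus genes were lower (median -4.20), and Kl stood at 269 and 282 CPM in the fibroblast-marker-high spots of sections 1 and 4 against 10.2 and 4.23 CPM in the endothelial-marker-high spots. The largest differences by rule were Cd4 (1.17), Sgpp2 (1.14), Coro6 (1.01), Lrrc10b (0.98) and Mme (0.96) upwards and Kcne2 (-5.62), Krt18 (-5.46), Kl (-5.06), Ecrg4 (-4.64) and Calml4 (-4.64) downwards. Kcne2 and Krt18 had no UMI in some endothelial-marker-high sums, which bears on their fitted values in the same way.

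Over all genes outside the score, the 10 largest rises against other spots with at least 100 UMIs and the same direction in all sections were Itih2 (2.66), Ccl19 (2.51), Slc22a6 (2.51), Tagln, Slc6a13, Myh11 (2.29), Foxd1 (2.26), Acta2, Dcn and Gpr182 (2.11). Itih2, which encodes a heavy chain of inter-alpha-trypsin inhibitor, was at 11.3, 7.09, 9.23 and 3.74 CPM in the endothelial-marker-high spots and 0.850, 1.49, 1.65 and 0.863 CPM in the others. Without fibroblast-marker-high spots, Slc22a6, an organic anion transporter, went to -0.12. The symbol Ccl19 belongs to several identifiers in the files, so its reads may be shared between copies. The 10 largest falls were S100a2, Mycbpap (-1.91), Kcne2 (-1.76), Gm42595 (-1.61), Calml4 (-1.14), Folr1 (-1.01), Fam78a (-0.95), Mettl15 (-0.90), Igfbpl1 (-0.84) and Foxo6 (-0.84). S100a2 had 1 UMI in the endothelial-marker-high spots and 117 in the others, where the share of UMIs in the former was under 10%, and no fold is given. Mycbpap and Kcne2 had 4 and 10 UMIs and were at 0 in some sums, and Kcne2, Calml4 and Folr1 were concentrated in section 1.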

How the data were processed

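Per the labels and the study's methods, fresh frozen brain sections of Nf1+/- mice were processed for Visium, and the authors ran Space Ranger (version 1.3.1 per the file headers, mm10 per the submitters' processing notes). The deposited values were raw UMI counts for 32285 genes per spot, not normalized. Spots under 500 UMIs (48 of 7668) were left out. The score and its top 10% were computed as given in the report, UMIs were added up over the spots of each group in each section, and CPM are UMIs scaled to 1000000 per sum. The tests used edgeR 4.0.16 (R 4.3.3) with TMM scaling, its filterByExpr filter, a block for the section, quasi-likelihood F tests and p adjusted by Benjamini-Hochberg, and a gene was called at an adjusted p under 0.05. Standard errors are the log2 fold change over the square root of F. The 8 score genes (and the 8 of the other score, in the comparisons with astrocyte- and fibroblast-marker-high spots) were left out of all calls. The groups are paired by section because each section supplies both, and the paired deviations had correlations of 0.379 to 0.507. On simulated counts for the main comparison (14301 genes, 200 changed by a log2 fold change of 1) 167 changed and 4 unchanged genes were called. The simulated counts had the same dispersion for all genes and no choice of spots by score. They therefore do not show how that choice bears on the calls.

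Named genes are the score genes, Nf1, up to 4 members of lowest p per list with members that complete a described function, and the largest changes with at least 100 UMIs and 1 direction across the 4 sections. The members and gene lists were chosen with earlier results of these data known, so a list is described by its counts and median and has no test of its own. Of 405 list genes with a single identifier, 390 passed the low-count filter with Nf1 aside. That filter can keep a gene for its level in either group. Matched spots came from 10 k-means clusters per section (20 components of 1000 variable genes, scikit-learn 1.9.0), up to 3 spots each. Alternatives were the top 5% or 20% of spots, the 4-gene scores, spots thinned to 5000 UMIs, all spots, spots without choroid plexus markers (at least 3 of 10) or fibroblast markers, matched spots, scaling to total UMIs, the DESeq2 1.42.0 test, fits with no filter or no block, score genes left out first, and each section left out. Pairs of sections shared 427 to 1989 spot barcodes, which are slide positions and not shared cells, and their summed counts differed by more than counting error (chi-square over its degrees of freedom 15.8 to 60.7). Spot positions and tissue images were not used here, and some list members are not reported here by name. UMI counts limit the precision of genes at a few CPM.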

Additional observations from a re-analysis of the deposited data

Results flagged for a closer look

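In 6 of 144 values compared across the sections, a single section lay far from the other 3 by Dixon's test, where chance alone gives about 7.2. The log2 ratio of endothelial-marker-high to other spots in the summed choroid plexus genes was -1.09 in section 1, where the other sections ran from -0.24 to -0.11, and that of Slc17a7, the vesicular glutamate transporter of cortical neurons, was -0.91 there as against -0.18 to -0.12 elsewhere. In section 3, the shallowest per spot, the ratio was the highest for the summed OPC genes (0.24, others 0.07 to 0.09), Abcg2 (1.38, others 0.89 to 0.92), Ptprb (1.92, others 1.52 to 1.56) and Rgs5 (1.29, others 0.99 to 1.03).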

How the results depend on the processing

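Counts of called genes depended on the processing more than directions did. Against the main counts of 939 higher and 400 lower genes, spots chosen by Cldn5, Flt1, Pecam1 and Cdh5 alone gave 482 and 106, thinning to 5000 UMIs gave 349 and 90, leaving out fibroblast-marker-high spots gave 351 and 103, DESeq2 gave 464 and 92, and the fit without the section as a block, which drops the pairing, gave 250 and 1. Matched spots gave 171 lower genes and no filter on low counts 698. With any 1 section removed, 571 to 887 genes were higher and 199 to 323 lower, the fewest of each without section 2. All genes higher with DESeq2 (464) or without the block (250) were also called higher in the main comparison, and with thinning 322 of 349 were.

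Against astrocyte-marker-high spots, where 597 genes were higher and 587 lower, the top 5% of spots gave 370 higher, DESeq2 140 and 172, no block 66 and 118, and leaving out a section 278 to 547 and 368 to 444. Against fibroblast-marker-high spots, where 215 were higher and 459 lower, the top 20% gave 96 and 267, DESeq2 48 and 123, no filter 406 and 706, no block 5 and 56, and leaving out a section 47 to 183 and 140 to 529. In both comparisons sections 1 and 4 mattered most. The 8 genes left out of the 4-gene scores were called in every setting tried for them.

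The share of endothelial-marker-high spots that were high for another score moved with the size of the group, as does the share of all spots (5% and 20%), to 25.1% and 35.3% for pericyte genes, 17.2% and 28.2% for smooth muscle genes, 14.8% and 27.9% for astrocyte genes, 8.55% and 25.3% for microglia genes, 6.64% and 22.5% for OPC genes with the top 5% and the top 20% of spots, and with thinning to 21.3% for pericyte and 18.2% for smooth muscle genes.

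Nf1, with a log2 fold change near 0, changed sign with the score of Cldn5, Flt1, Pecam1 and Cdh5 (-0.058), thinning (-0.037), all spots (-0.012), without choroid plexus-marker spots (-0.083), without fibroblast-marker-high spots (-0.069), with total-UMI scaling (-0.0015), DESeq2 (-0.0071), no filter (-0.025), no block (-0.023) and score genes left out first (-0.0064), and it ran from -0.12 to 0.12 with a section left out.

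Other named genes changed sign as well. Without fibroblast-marker-high spots, Hba-a2 came to -0.68, Hbb-bs to -1.02, then called lower, Hba-a1 to -0.76 and Slc22a6, called higher with all spots, to -0.12. With a section left out, Hba-a2 ran from -0.073 to 1.3, Hbb-bs from -0.45 to 1.47 and Hba-a1 from -0.95 to 1.42, lowest without section 2 and highest, and all called, without section 3. Hba-a1 was -0.13 with the top 20%, -0.11 with the score of Ly6c1, Itm2a, Slco1a4 and Abcb1a and -0.094 with thinning. Slc2a3 was 0.0043 with thinning. Otx2 was 0.59 with the score of Cldn5, Flt1, Pecam1 and Cdh5 and 0.15 with thinning. Dynlrb2 and Rsph1 were 0.081 and 0.038 without choroid plexus-marker spots. Mal was -0.012 with the score of Cldn5, Flt1, Pecam1 and Cdh5.

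The counts per list stayed within 1.5 times the main count in 344 of the list and setting pairs, fell further in 103 and rose further in 3. The causes of these changes were not tested. Depth limits genes at a few CPM, the labels do not say whether sections are separate mice, and spots hold several cells.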
